A study of Mus musculus with 16 samples.

Results

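The response to azacitidine of lineage-negative, Sca1-positive, Kit-positive (LSK) bone marrow cells carrying DNMT3A R882H was examined by RNA sequencing of 9 libraries out of 16 in the series, 5 from azacitidine-treated and 4 from NaCl-treated recipients. The members of the comparison are all 30141 rows of the count tables that carry a mouse gene identifier, and 18341 of them had enough counts to be tested. Cells of both groups expressed, per the labels, mouse WT DNMT3A and human DNMT3A R882H, the latter from a knock-in allele whose stop cassette is removed by Mx1-Cre. Excision was induced in the donors with poly(I:C), for which 15 µg per g is 1 of the schedules that the labels list, with no word on which animals received which. Marrow was taken 4 weeks later, mixed 1:1 with marrow of CD45.1 competitors and transplanted into CD45.1 recipients. Treatment began 2 weeks after transplantation and lasted 2 weeks, with 5 days on, 2 days off and 5 days on, at 2.5 mg per kg azacitidine or with 0.9% NaCl. The competitor marrow carries no R882H allele, and no label states that CD45.1 cells were removed in the sort. Mx1-Cre acts in many interferon-responsive cells, so the allele is not restricted to blood cells in the donors. The ages of the animals are not given in the sources used here. Nothing says which libraries came from separate animals, so p-values measure only the spread between these samples, which may in part be technical.

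DNMT3A adds methyl groups to cytosines of CpG dinucleotides that were not yet methylated, and the R882H substitution, a frequent event in clonal haematopoiesis and acute myeloid leukaemia, lowers this activity and interferes with the WT protein. Azacitidine is a cytidine analogue that is incorporated into RNA and, after reduction, into DNA, where it traps DNA methyltransferases, so that methylation is lost as cells divide. LSK cells hold the haematopoietic stem cells and the earliest multipotent progenitors of the marrow, which already transcribe low levels of genes of the megakaryocytic, myeloid and lymphoid lineages. The comparison asks which transcripts differ after azacitidine when the mutant allele is present.

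Total counts ran from 35860445 to 56012766 per R882H library. Levels are given as CPM, the count divided by the TMM-normalised library size and scaled to a common total, and changes as log2 of azacitidine over NaCl. Stem and progenitor markers were abundant in both groups, with Kit at 431 to 1037 CPM in treated and 409.9 to 1226 in control libraries and Cd34 at 1033 to 1333 and 427 to 1292. Transcripts of mouse Dnmt3a stood at 96.2 ± 4.54 CPM (SD, n = 5) with azacitidine and 90.5 ± 19.6 (SD, n = 4) with NaCl. The rows do not separate human from mouse transcripts of the gene, so the mutant allele could not be checked. Of the lineage markers the sort should deplete, Cd8a was at 0 in all 5 treated libraries and Ly6g did not exceed 0.952 CPM in any of the 9. The T cell gene Cd3d was higher in some controls, as were red cell genes as a list, whose levels are given below. Cd3d was at 0.661, 0.897, 0.471, 0.599 and 0.568 CPM in azacitidine replicates 1 to 5 and at 22.3, 2.41, 0.144 and 0.208 in NaCl replicates 1 to 4. NaCl replicates 1 and 2 therefore stood apart from NaCl replicates 3 and 4, and on the first principal component, with 26.4% of the variance, they lay at 64.0 and 78.6 against -57.4 and -63.7. The 5 treated libraries lay between these pairs, at -44.2 to 0.759. Values against the first pair (replicates 1 and 2) and the second (3 and 4) are given below where they bear on a result; what a replicate number stands for is not given in the labels.

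Azacitidine changed few transcripts by the edgeR quasi-likelihood test at an adjusted p under 0.05. It called 0 genes higher (0% of those tested) and 1 lower (0.00545%), an antisense transcript of unknown function, Gm11837. By the unadjusted edgeR p, 410 genes (2.24%) were higher and 817 (4.45%) lower at the 0.05 level. DESeq2 called 31 higher (0.201% of the 15457 genes with an adjusted p) and 66 lower (0.427%), and limma-voom called 0 higher (0%) and 1 lower (0.00545%). With library weights, limma-voom called 37 higher (0.202%) and 88 lower (0.48%), and gave NaCl replicates 1 and 2 weights of 0.196 and 0.141 against 2.29 and 2.68 for replicates 3 and 4. In 199 genes (1.09%) all 5 treated libraries lay above all 4 controls, and in 89 (0.485%) all lay below. With 5 and 4 libraries some genes separate in this way by chance alone. How many was not estimated, so the counts of 199 and 89 are not shown to exceed that number. With single libraries left out the counts of 199 and 89 became 223 to 465 and 110 to 533. For higher genes the count was more than 1.5 times larger without azacitidine replicate 4 (322) or NaCl replicate 1 (365), 2 (429), 3 (379) or 4 (465). For lower genes it was more than 1.5 times larger without any library except azacitidine replicate 3, up to 533 without NaCl replicate 2. Groups of fewer libraries separate more easily, so these rises do not by themselves show that a single library mattered. The number of calls differed with the controls used. Against NaCl replicates 1 and 2 alone edgeR called 1245 genes higher and 1276 lower, and against replicates 3 and 4 alone it called 0, with 1012 genes at an unadjusted p under 0.05. On simulated counts the edgeR fit recovered 38% of 100 genes altered 2-fold and 87% of 100 altered 4-fold, with 7 wrong calls. Genes of low expression were not altered, and the split between the control pairs was not simulated. The shares are therefore not the recovery to be had in the real libraries.

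Gm11837 (ENSMUSG00000086587, chr4:14929908-14953030, GRCm38) was at 0.767, 0.897, 0.518, 0.663 and 0.741 CPM in azacitidine replicates 1 to 5 and at 3.48, 5.01, 2.75 and 3.102 CPM in NaCl replicates 1 to 4. All treated libraries lay below the controls of both pairs. The log2 change was -2.31 (SE 0.32, edgeR adjusted p = 0.0307), with -2.53 against NaCl replicates 1 and 2 and -2.03 against replicates 3 and 4. The call was lost when any 1 of the 9 R882H libraries was left out, with changes of -2.42 to -2.11 and edgeR adjusted p of 0.0511 to 0.18. It was also lost in a fit of the R882H libraries alone. The WT libraries shared the main fit, and the call was lost without WT NaCl replicate 1, 2 or 3 and kept without any other single WT library. The locus overlaps Necab1, a calcium-binding protein gene on the other strand, by 786 bases, and Necab1 did not have enough counts to be tested. In bulk samples, fewer cells of a type and less RNA per cell cannot be told apart, here or in any result that follows.

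The gene next in rank, 4933406J09Rik (ENSMUSG00000107666, chr6:134308951-134403415), lies antisense to Bcl2l14 (ENSMUSG00000030200, chr6:134396318-134438736), a gene of the BCL-2 family. 4933406J09Rik was at 1.39, 2.76, 3.06, 1.56 and 2.47 CPM in azacitidine replicates 1 to 5 and at 0.531, 0.257, 0.455 and 0.625 CPM with NaCl. Every treated library was above every control, with a log2 change of 2.26 (SE 0.36, edgeR adjusted p = 0.0985, DESeq2 adjusted p = 2.13e-06). Bcl2l14 was at 11.4, 11.7, 13.4, 10.3 and 9.36 CPM with azacitidine and 3.22, 3.36, 5.98 and 7.89 CPM with NaCl, also without overlap, a log2 change of 1.13 (SE 0.27). The annotated spans of these 2 genes overlap by 7098 bases, and the labels give no strand setting for the counting, so reads within the overlap cannot be assigned to either gene with certainty.

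The promoters of Clec11a, 4933406J09Rik and Lmo1 are shown because these genes were higher in every treated library, and because azacitidine acts through methylation of CpG dinucleotides, which are in capitals. The sequences are the 250 bases before the RefSeq start of each gene (GRCm38.p6, all on the minus strand), at chr7:44306960-44307209, chr6:134403416-134403665 and chr7:109175208-109175457.
Clec11a: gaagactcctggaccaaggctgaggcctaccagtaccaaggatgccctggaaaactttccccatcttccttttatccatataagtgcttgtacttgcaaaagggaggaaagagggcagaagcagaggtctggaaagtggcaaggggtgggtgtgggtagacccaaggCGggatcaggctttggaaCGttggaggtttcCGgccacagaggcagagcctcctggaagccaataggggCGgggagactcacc
4933406J09Rik: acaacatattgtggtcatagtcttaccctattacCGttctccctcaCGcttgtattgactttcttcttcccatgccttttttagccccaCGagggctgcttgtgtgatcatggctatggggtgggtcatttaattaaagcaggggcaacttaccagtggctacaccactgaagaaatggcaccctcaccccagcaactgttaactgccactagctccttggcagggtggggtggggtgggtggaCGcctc
Lmo1: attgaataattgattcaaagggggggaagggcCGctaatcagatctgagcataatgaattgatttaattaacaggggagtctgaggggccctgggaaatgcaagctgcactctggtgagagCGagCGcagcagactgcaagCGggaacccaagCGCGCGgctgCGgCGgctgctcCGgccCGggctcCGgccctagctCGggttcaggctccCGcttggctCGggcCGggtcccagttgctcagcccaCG
The motif CG, which reads the same on both strands, occurs 4 times before Clec11a, 4 times before 4933406J09Rik and 17 times before Lmo1. Of the 27025 genes with such a window 91.7% hold the motif at least once, 44.5% hold it 4 times or fewer and 23.5% hold it 17 times or more. These 27025 include genes that were not tested here, so the shares do not describe the tested genes. Methylation was not measured in these libraries.

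Clec11a (ENSMUSG00000004473, chr7:44302687-44306902) encodes a secreted C-type lectin with growth factor activity on progenitors. It was at 22.2, 22.3, 23.7, 19.2 and 18.9 CPM in azacitidine replicates 1 to 5 and at 10.01, 9.12, 7.08 and 7.16 in NaCl replicates 1 to 4. The treated libraries were tightly grouped above every control, with a log2 change of 1.35 (SE 0.28, DESeq2 adjusted p = 0.00107, edgeR adjusted p = 0.343). Lmo1 (ENSMUSG00000036111, chr7:109138572-109175207), a LIM-only cofactor of haematopoietic transcription factors and a T cell leukaemia oncogene, was at 3.67, 5.99, 4.801, 3.79 and 5.11 CPM with azacitidine and 1.62, 2.31, 2.13 and 2.46 with NaCl. The groups did not overlap, and the log2 change was 1.13 (SE 0.24). Lat2 (ENSMUSG00000040751, chr5:134600022-134615025), an adaptor that links immune receptors to intracellular signalling, was at 128, 161, 172, 109 and 136 CPM with azacitidine and 81.1, 43.2, 79.8 and 67.8 with NaCl. Its lowest treated library, replicate 4, lay above the highest control, replicate 1, and the log2 change was 1.05 (SE 0.21).

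These 3 belong to the 12 named genes with the lowest p among expressed genes that were higher in every treated library. Their log2 changes ran from 0.66 to 1.87 with edgeR adjusted p of 0.343 to 0.413, and DESeq2 called all 12 at an adjusted p under 0.05. That their groups do not overlap follows from how they were chosen, and the DESeq2 calls rest on the same counts, so neither is separate support. F2rl2 (ENSMUSG00000021675, chr13:95696853-95702739), the thrombin-responsive receptor PAR3, was at 11.6, 8.49, 13.4, 12.5 and 15.4 CPM with azacitidine and 4.49, 6.83, 4.88 and 4.23 with NaCl. Chga (ENSMUSG00000021194, chr12:102554969-102565028), a secretory granule protein best known from neuroendocrine cells, was at 6.27, 5.4, 12.6, 5.09 and 4.198 CPM with azacitidine and 2.39, 0.950, 1.56 and 2.44 with NaCl, the largest change of the 12. Treated replicate 3 was the highest for Chga, and the lowest treated library was still above the highest control. Bpifc, of the BPI fold family of lipid-binding proteins, had a log2 change of 1.15 (SE 0.26) and the secreted matrix protein gene Ecm1 one of 1.08 (SE 0.26). The monocarboxylate transporter family gene Slc16a11 differed by 1.14 (SE 0.28), the glycosyltransferase gene B3gnt7 by 0.86 (SE 0.20) and the alpha-tubulin gene Tuba1a by 0.66 (SE 0.15). Reads of Tuba1a are uncertain, because other alpha-tubulin genes are close copies and the gene model Gm49450 spans 3715 of its bases on the same strand, and Lat2 overlaps Rfc2 on the other strand by 1784 bases.

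**Figure D1:**
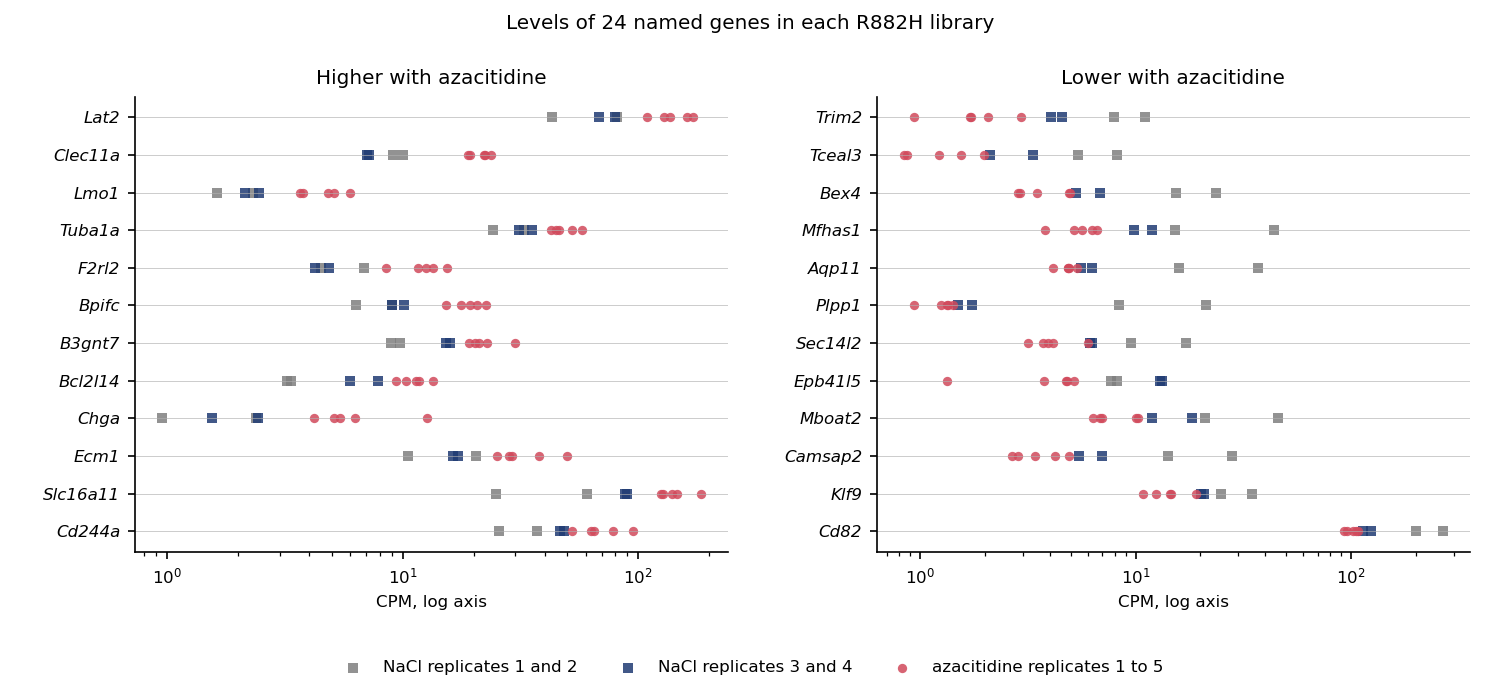
Levels in CPM (log axis) of the 12 named higher genes (left) and the 12 named lower genes (right), 1 point per R882H library; squares are NaCl libraries, with replicates 1 and 2 in grey and 3 and 4 in blue, and red circles are the 5 azacitidine libraries. No red circle overlaps the squares in any row, and on the right the blue squares lie between the red circles and the grey squares for 11 genes, Epb41l5 being the exception.

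The higher genes were positive against either pair of controls, which also follows from how they were chosen. Their changes were 0.81 to 2.03 against NaCl replicates 1 and 2 and 0.53 to 1.74 against replicates 3 and 4. Against replicates 3 and 4 all 12 had an unadjusted edgeR p under 0.05, from libraries that were also used to choose them. Clec11a and F2rl2 differed more from replicates 3 and 4, by 1.57 and 1.43, than from replicates 1 and 2, by 1.18 and 1.15. The other 10 differed more from replicates 1 and 2.

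The 12 named lower genes were less uniform. Log2 changes ran from -2.71 to -0.81, with edgeR adjusted p of 0.343 to 0.413. DESeq2 called 11 of the 12, on the same counts by which they were chosen. Trim2 (ENSMUSG00000027993, chr3:84160439-84306877), a ubiquitin ligase gene, was at 2.07, 1.702, 0.941, 2.95 and 1.73 CPM in azacitidine replicates 1 to 5 and 7.94, 11.1, 4.57 and 4.04 in NaCl replicates 1 to 4. All treated libraries were lower, with a log2 change of -1.88 (SE 0.36, DESeq2 adjusted p = 0.000372). Mfhas1 (ENSMUSG00000070056, chr8:35587798-35679449), a leucine-rich repeat GTPase gene, was at 6.65, 5.67, 3.79, 6.27 and 5.18 CPM with azacitidine and 15.2, 44.04, 9.84 and 11.9 with NaCl, and control replicate 2 was the highest. Epb41l5 (ENSMUSG00000026383, chr1:119545037-119649000), a FERM-domain protein of the cell cortex, was at 5.16, 1.34, 4.75, 4.82 and 3.75 CPM with azacitidine and 7.67, 8.19, 13.3 and 13.1 with NaCl. It was the only one of the 12 that differed more from control replicates 3 and 4 (-1.74) than from 1 and 2 (-0.97). Tceal3 and Bex4, relatives in a gene cluster of the X chromosome, had changes of -1.88 (SE 0.40) and -1.74 (SE 0.38).

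For several of the lower genes the size rested on NaCl replicates 1 and 2. Plpp1, a lipid phosphate phosphatase gene, was at 1.43, 0.934, 1.25, 1.35 and 1.33 CPM with azacitidine and 8.41, 21.3, 1.75 and 1.499 with NaCl, so that its change was -3.53 against the first pair of controls and -0.37 against the second. The aquaporin gene Aqp11 had -2.43 and -0.30, the microtubule minus-end gene Camsap2 -2.52 and -0.79, and the tetraspanin gene Cd82 -1.18 and -0.25. All 12 were negative against replicates 3 and 4, which follows from how they were chosen, and 8 had an unadjusted edgeR p under 0.05 there. Red cell and ribosomal protein genes were also high in control replicates 1 and 2, as given below, and their part in these values was not tested.

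**Figure D2:**
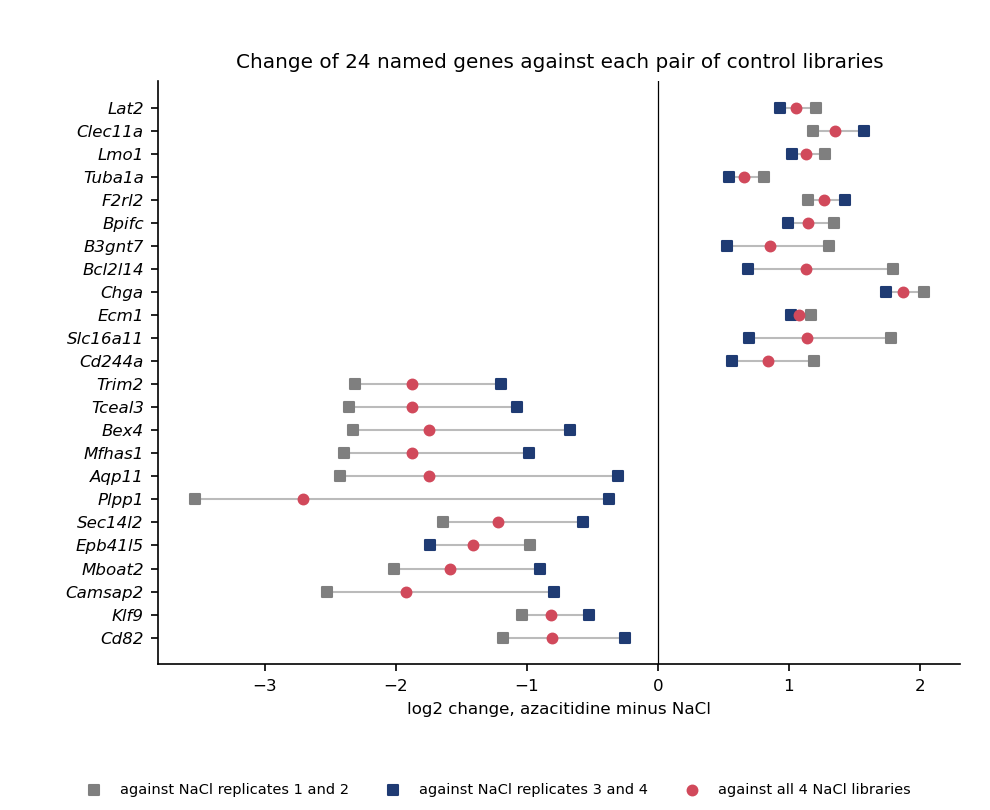
Log2 change (azacitidine minus NaCl) of the 24 named genes against NaCl replicates 1 and 2 (grey squares), against replicates 3 and 4 (blue squares) and against all 4 controls (red circles), with a line joining the 2 pairs. The upper 12 genes keep 0.53 or more against either pair, while Plpp1, Aqp11 and Cd82 are at -0.37, -0.30 and -0.25 against replicates 3 and 4.

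DESeq2 and the weighted limma-voom fit both called 22 genes, 15 higher and 7 lower. Groups did not overlap in 21 of the 22, beside 1.09% of all genes tested higher and 0.485% lower without overlap. Both fits and the check of overlap rest on the same counts, so none of them is separate support. The weighted fit was added after the data had been seen. Ptgir, the prostacyclin receptor, was at 9.21, 9.21, 12.7, 9.46 and 11.1 CPM with azacitidine and 4.75, 4.19, 5.91 and 5.54 with NaCl. Rapgef3, a cAMP-activated exchange factor, was at 37.8, 35.5, 40.01, 35.5 and 32.4 CPM with azacitidine and 20.6, 14.5, 24.2 and 22.6 with NaCl. Both were higher in every treated library, with log2 changes of 1.02 (SE 0.27) and 0.82 (SE 0.21), and with 0.84 and 0.63 against control replicates 3 and 4. Mrvi1, a target of cGMP-dependent kinase in platelets and smooth muscle, differed by 1.14 (SE 0.31). Pde10a, a cyclic nucleotide phosphodiesterase that DESeq2 called but the weighted fit did not (DESeq2 adjusted p = 0.0261), was at 8.1, 2.87, 3.29, 2.44 and 4.89 CPM with azacitidine and 1.86, 1.26, 0.814 and 1.603 with NaCl and was named after its values were seen. Among the lower genes Pkhd1l1, which encodes a large fibrocystin-like protein, was at 0.234, 0.201, 0.0471, 0.193 and 0.445 CPM with azacitidine and 3.63, 4.39, 1.15 and 0.812 with NaCl. It had the largest change of the 22, -3.46 in log2 (SE 0.60, DESeq2 adjusted p = 1.69e-05), with -2.12 against control replicates 3 and 4. Fam181b was the 1 gene of the 22 whose groups overlapped, at 2.22, 1.39, 0.965, 1.03 and 0.988 CPM with azacitidine and 4.22, 1.57, 3.95 and 4.85 with NaCl.

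Receptors of the SLAM family are used to divide LSK cells into stem cells and progenitors. Cd48, carried by most multipotent progenitors and absent from most long-term stem cells, was at 184, 254, 259.6, 190.4 and 205 CPM with azacitidine and 141, 125, 125 and 127 with NaCl. The 4 controls were close to each other here, and all treated libraries lay above them, with a log2 change of 0.76 (SE 0.24, edgeR adjusted p = 0.481), and 0.74 and 0.79 against the first and the second pair. Its receptor Cd244a was at 52.3, 77.9, 94.8, 64.7 and 62.8 CPM with azacitidine and 37.2, 25.5, 46.4 and 48.3 with NaCl, a change of 0.84 (SE 0.21, DESeq2 adjusted p = 0.0319). Slamf1, the CD150 antigen of long-term stem cells, was at 40.5, 19.9, 16.2, 21.7 and 15.6 CPM with azacitidine and 11.7, 8.01, 12.2 and 16.1 with NaCl, and 1 treated library lay inside the control range (log2 change 0.93, SE 0.28). Cd48 was singled out after its values were seen. Of 50 tested stem cell genes 19 had positive and 31 negative changes, with a median of -0.13 beside -0.04 over all genes tested, and the median was 0.32 against control replicates 1 and 2 and -0.33 against 3 and 4. Kit and Ly6a, which define the sort gate, had changes of -0.02 (SE 0.35) and -0.20 (SE 0.51).

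Genes of lineage priming were next examined. Of 41 megakaryocyte and platelet genes tested, 26 had positive changes, with a median of 0.20 against all controls and 0.02 against replicates 3 and 4, and 2 of the 41 were higher without overlap (F2rl2 and Itga2b), beside 1.09% of all genes tested. Itga2b, the platelet integrin subunit CD41 that early progenitors also carry, was at 324, 247, 304, 291 and 317 CPM with azacitidine and 153, 206, 218 and 179 with NaCl. All treated libraries were higher, and the change was 0.65 (SE 0.18), with 0.58 against replicates 3 and 4. Selp, the platelet adhesion molecule P-selectin, was at 153, 78.2, 131, 64.6 and 67.8 CPM with azacitidine and 73.95, 45.7, 35.4 and 39.9 with NaCl, where 2 treated libraries lay below control replicate 1 (log2 change 1.02, SE 0.32, and 0.75 and 1.39 against the first and the second pair). Of the 33 lymphoid priming genes tested, 20 had positive and 13 negative changes. At an unadjusted edgeR p under 0.05, 4 were higher and 5 lower, beside 2.24% and 4.45% of all genes tested. Without overlap 3 were higher, beside 1.09% of all, among them Tespa1, a signalling gene of developing T cells. Tespa1 was at 122, 168, 178, 129.7 and 138 CPM with azacitidine and 117, 61.1, 101 and 115 with NaCl (log2 change 0.58, SE 0.20, and 0.44 against replicates 3 and 4). Rag2, a subunit of the V(D)J recombinase, was at 9.83, 8.88, 15.2, 7.98 and 10.7 CPM with azacitidine and 3.75, 1.64, 8.38 and 5.64 with NaCl, with 1 treated library inside the control range, and its change was 1.12 (SE 0.36), or 0.58 against replicates 3 and 4. In the other direction the chemokine receptor gene Ccr9 was at 3.65, 3.04, 4.75, 3.77 and 5.88 CPM with azacitidine and 28.6, 3.11, 7.37 and 11.1 with NaCl, highest in control replicate 1, with a change of -1.57 (SE 0.46) and -1.14 against replicates 3 and 4. Il7r, the interleukin-7 receptor chain, was at 3.496, 2.51, 2.87, 3.15 and 4.15 and 24.1, 4.96, 3.52 and 2.98 CPM, with -1.46 (SE 0.50) and -0.01 against replicates 3 and 4. The list's median was 0.29, with 0.06 without NaCl replicate 2 and 0.17 without azacitidine replicate 4 as the lowest values when 1 library was left out, and 0.21 and 0.30 against either pair of controls. No member of these lists was called by edgeR.

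Of 39 neutrophil and monocyte priming genes tested, 27 had positive changes, and 2 (beside 1.09% of all genes) were higher without overlap. At an unadjusted edgeR p under 0.05, 4 were higher and 2 lower, beside 2.24% and 4.45% of all genes tested. The 2 lower members were the metallothionein gene Mt1 and the surface antigen gene Ly6c1, with -1.76 (SE 0.63) and -1.96 (SE 0.70), and with 1.15 and 0.14 against control replicates 3 and 4. Gfi1, a repressor needed for granulocyte formation, was at 79.5, 69.05, 76.7, 71.4 and 68.3 CPM with azacitidine and 43.5, 29.6, 62.7 and 65.7 with NaCl (log2 change 0.53, SE 0.21, and 0.18 against replicates 3 and 4). Clec12a, an inhibitory receptor of myeloid cells, was at 70.2, 101, 104, 77.8 and 99.3 CPM with azacitidine and 68.3, 67.8, 47.6 and 39.8 with NaCl (log2 change 0.69, SE 0.30). The list's median of 0.16 was -0.13 against control replicates 1 and 2 and 0.62 against 3 and 4, so its sign depended on the controls used. Spi1, which encodes the myeloid master factor PU.1, had 0.45 (SE 0.20). The lysosomal gene Cd68 was higher in every treated library, at 36.1, 43.2, 38.4, 36.2 and 39.04 CPM against 18.8, 18.03, 24.9 and 29.98 with NaCl (log2 change 0.75, SE 0.20, DESeq2 adjusted p = 0.0492), and its change was 0.49 against replicates 3 and 4. Its list, macrophage and dendritic cell genes, had 9 positive and 23 negative members of 32 tested. The median of these 32 was -0.73, with -0.17 and -0.44 against the first and the second pair of controls. An unadjusted edgeR p under 0.05 was found for 2 higher and 7 lower members, beside 2.24% and 4.45% of all genes tested. Without overlap 2 were higher and 2 lower, beside 1.09% and 0.485% of all. Hk3, the hexokinase of myeloid cells, and Egln3, a prolyl hydroxylase induced by hypoxia, were 2 of the 4 among 41 tested genes of glycolysis and hypoxia that were higher without overlap, beside 1.09% of all. Of these 41 genes 1 was lower without overlap, beside 0.485% of all. That list had a median of 0.38 against the first pair and -0.07 against the second. Hk3 was at 253, 187, 258, 201 and 244 CPM with azacitidine and 90.6, 97.6, 178 and 157 with NaCl, and Egln3 was at 25.3, 35.8, 33.4, 28.98 and 30.1 and 19.3, 13.7, 20.1 and 22.9 CPM. Against control replicates 3 and 4 their changes were 0.44 and 0.51, and against all controls 0.80 and 0.69.

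The largest shifts of whole lists were in red cell, T cell and mitochondrial genes, and their signs were opposite against NaCl replicates 3 and 4. Of 49 erythroid and haem synthesis genes tested, 47 had negative changes with a median of -2.05. At an unadjusted edgeR p under 0.05, 35 of the 49 were lower, beside 4.45% of all genes tested. The mean level of the 49 genes was 3.757, 3.261, 3.390, 3.393 and 4.028 log2 CPM in azacitidine replicates 1 to 5 and 5.594, 6.462, 3.183 and 3.293 in NaCl replicates 1 to 4. Without NaCl replicate 2 the median was -0.70. Against replicates 1 and 2 the median was -2.91, and against replicates 3 and 4 it was 0.42, with 35 members positive. Epb42, a red cell membrane protein gene, was at 1.17, 0.989, 0.871, 0.985 and 0.617 CPM with azacitidine and 9.06, 15.4, 2.04 and 1.29 with NaCl, lower in every treated library (DESeq2 adjusted p = 0.000545), with -0.84 in log2 against replicates 3 and 4 and -2.90 against all. Car2, the red cell carbonic anhydrase, was also lower in every treated library, at 1226, 1364, 1211, 1085 and 1239 CPM against 2146, 4485, 1506 and 1527, with -0.31 against replicates 3 and 4 and -0.98 against all. Haemoglobin genes share near-identical copies and their counts are uncertain.

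T and NK cell genes had 37 of 43 tested members negative, a median of -1.17, and 0.76 against replicates 3 and 4, and the median was 0.02 without NaCl replicate 1 alone. Their mean level was 0.80, 0.90, 0.82, 0.71 and 0.88 log2 CPM in treated libraries, in a narrow band between 0.41 in NaCl replicate 4 and 1.44 in replicate 2, and it reached 3.62 in replicate 1. All 15 mitochondrially encoded genes had negative changes, with a median of -1.50, and 0.13 against replicates 3 and 4, and it was -0.47 without NaCl replicate 1. The respiratory chain subunit gene mt-Co3 was at 4.33, 4.87, 3.41, 4.17 and 6.22 CPM with azacitidine and 30.7, 16.1, 6.15 and 3.48 with NaCl. Cytosolic ribosomal protein genes had 81 of 82 members negative, with a median of -0.52, and nuclear oxidative phosphorylation genes 76 of 77, with -0.34. Against replicates 3 and 4 these medians were 0.35 and 0.33. Rps21, of the small ribosomal subunit, was at 43.2, 81.9, 48.9, 58.96 and 53.8 CPM with azacitidine and 228, 183, 42.4 and 36.3 with NaCl. Ribosomal protein genes have processed copies in the genome, and how reads shared with them were counted is not given in the sources used here.

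**Figure D3:**
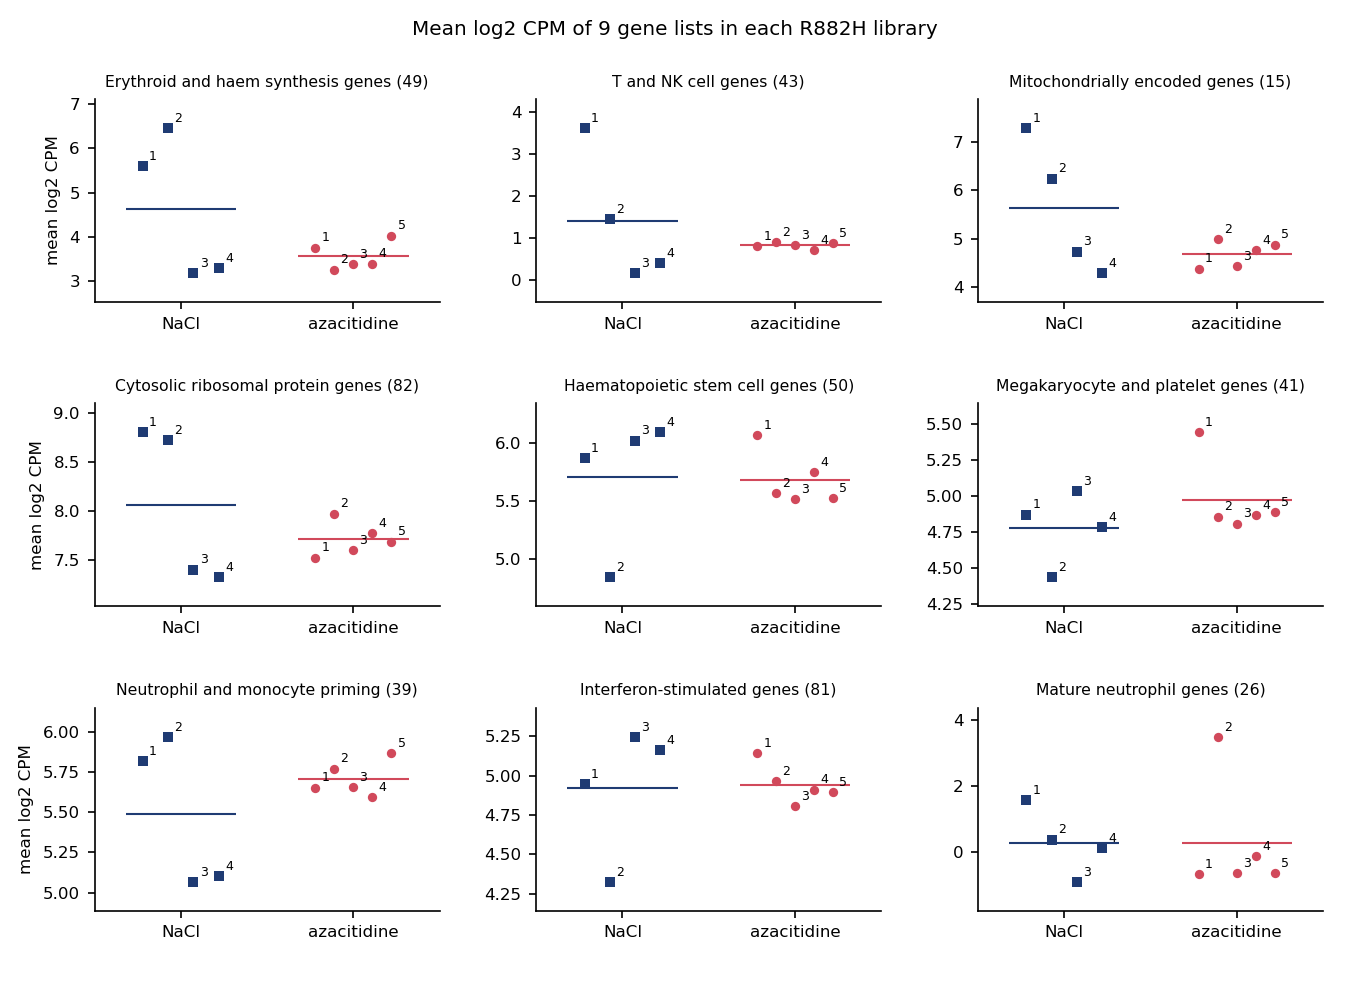
Mean log2 CPM of the tested members of 9 gene lists (number tested in brackets) in each R882H library; numbers beside the points are replicate numbers, squares are NaCl and circles azacitidine, and bars are group means. NaCl replicates 1 and 2 lie above all treated libraries for the erythroid, mitochondrial and ribosomal protein lists, and NaCl replicates 3 and 4 lie below or within them.

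Genes known to be released by loss of DNA methylation in other cells were examined next. Of 19 methylation-silenced germline genes tested, 14 had positive changes, with a median of 0.54 against all controls and 0.25 against replicates 3 and 4. Among the 19, 4 were higher and 0 lower at an unadjusted edgeR p under 0.05, beside 2.24% and 4.45% of all genes tested. None had groups without overlap, beside 1.09% of all higher and 0.485% lower, and 19 genes are too few to compare with such shares. Stag3, a meiotic cohesin subunit, was at 11.98, 8.18, 18.6, 17.5 and 14.6 CPM with azacitidine and 2.98, 5.29, 9.05 and 10.1 with NaCl, with 1 treated library inside the control range (log2 change 1.04, SE 0.34, and 0.56 against replicates 3 and 4). The helicase gene Ddx4 was at 15.9, 16.4, 21.4, 15.8 and 14.9 CPM with azacitidine and 5.31, 4.62, 14.96 and 18.6 with NaCl, low only in control replicates 1 and 2. Xlr4c had 0.88 (SE 0.37), and the Xlr4 genes are near-identical copies. Retroelement-derived genes had 9 positive and 8 negative of 17 tested (median 0.00), and against replicates 3 and 4 the median was -0.22. Genes of the methylation machinery had 14 of 22 members positive, a median of 0.08 and 0 members with an unadjusted edgeR p under 0.05. The maintenance methyltransferase gene Dnmt1 had 0.19 (SE 0.29), its partner Uhrf1 0.13 (SE 0.20), Dnmt3b 0.34 (SE 0.21), Dnmt3a 0.09 (SE 0.18) and the dioxygenase gene Tet2 0.24 (SE 0.26). Of 34 genes of azacitidine uptake and nucleotide metabolism 13 were positive, with a median of -0.05.

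Among imprinted genes 22 of 29 tested members had negative changes, with a median of -0.20 (-0.01 and -0.47 against either pair of controls), and 2 were lower without overlap, beside 0.485% of all genes tested. Both lie in 1 imprinted domain on chromosome 17. Igf2r (ENSMUSG00000023830, chr17:12682406-12769664), the receptor that clears IGF2 and is transcribed from the maternal allele, was at 5.499, 2.398, 3.41, 7.23 and 4.91 CPM with azacitidine and 10.7, 12.99, 17.6 and 9.45 with NaCl. Every treated library was below every control, with a log2 change of -1.44 (SE 0.39, DESeq2 adjusted p = 0.0429, edgeR adjusted p = 0.415). Airn, the paternally transcribed antisense RNA that silences Igf2r in cis, was at 0.128, 0, 0.118, 0.171 and 0.123 CPM with azacitidine and 0.443, 0.282, 0.263 and 0.375 with NaCl, a change of -1.64 (SE 0.78) at levels near the limit of detection. The change of Igf2r was -1.31 against control replicates 1 and 2 and -1.53 against 3 and 4. Airn starts inside Igf2r on the other strand, so their reads cannot be fully separated without a strand setting and they do not count as 2 independent members. Meg3, a maternally transcribed long RNA, was at 0.554, 1.02, 0.494, 1.07 and 0.938 CPM with azacitidine and 2.804, 0.0770, 4.21 and 5.95 with NaCl, lowest in control replicate 2 and above all treated libraries in the other 3 controls. Phlda2, a growth-restraining imprinted gene, had -0.77 (SE 0.33).

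Interferon-stimulated genes, which azacitidine is known to induce in some tumour cells through double-stranded RNA of endogenous retroviruses, had 44 positive and 37 negative of 81 tested, with a median of 0.02. The median was 0.36 against control replicates 1 and 2 and -0.19 against 3 and 4, where 66 of 81 were negative. Of the 81 genes 2 were higher without overlap, beside 1.09% of all genes tested. Among them was the interferon-inducible GTPase gene Ifi47, at 244, 226, 222, 199 and 233 CPM with azacitidine and 187, 123, 195 and 183 with NaCl (log2 change 0.39, SE 0.16). Ifit3, which binds viral RNA, was at 3.67, 2.45, 1.39, 1.97 and 1.78 CPM with azacitidine and 6.58, 2.902, 4.09 and 4.77 with NaCl, and its direction was the opposite (-1.02, SE 0.43). Nucleic acid sensing genes had a median of 0.11 over 25 tested, which was 0.47 against control replicates 1 and 2 and -0.16 against 3 and 4, where 17 were negative. Of these genes 2 were higher without overlap, beside 1.09% of all. These were Unc93b1, the chaperone of endosomal Toll-like receptors, at 234, 211, 246, 207 and 224 CPM against 164, 103, 172 and 205, and Mlkl, the effector of necroptosis, at 60.5, 61.8, 59.3, 62.1 and 60.1 against 34.7, 33.6, 53.4 and 57.4. Their changes were 0.48 and 0.44, and 0.25 and 0.13 against control replicates 3 and 4. The DNA sensor gene Cgas had 0.42 (SE 0.17), with 1 control inside the treated range. Antigen presentation genes had 22 of 32 positive (median 0.10). Of these 32 genes 1 was higher without overlap, beside 1.09% of all, the immunoproteasome subunit Psmb8 (0.35, SE 0.18).

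For p53 targets the median was 0.09 (0.00 against control replicates 3 and 4) over 35 tested members. Of these 1 was higher and 1 lower without overlap, beside 1.09% and 0.485% of all genes tested. Cdkn1a, the cyclin-dependent kinase inhibitor p21, was at 19.3, 24.8, 20.7, 18.5 and 23.4 CPM with azacitidine and 16.8, 10.9, 13.2 and 9.53 with NaCl. Every treated library was above every control, and the change was 0.76 (SE 0.28, edgeR adjusted p = 0.615), with 0.65 and 0.90 against either pair. Eda2r, a TNF receptor family gene, was at 0.405, 0.604, 0.0706, 0.621 and 0.667 CPM with azacitidine and 1.299, 0.770, 1.005 and 0.958 with NaCl. Btg2, an antiproliferative gene that is also an immediate early gene, was at 105, 109.5, 102, 73.6 and 78.99 CPM with azacitidine and 60.2, 29.3, 73.8 and 45.6 with NaCl, with the lowest treated library just below the highest control. DNA damage repair, cell division and DNA replication genes had medians of 0.04, 0.00 and -0.02 over 69, 58 and 55 tested members. Cell division genes had -0.14 against the first pair of controls and 0.14 against the second. Immediate early genes had 33 of 37 positive, with a median of 0.58, and 0.27 against control replicates 3 and 4. Among the 37, 4 were higher and 0 lower at an unadjusted edgeR p under 0.05, beside 2.24% and 4.45% of all genes tested. None had groups without overlap, beside 1.09% of all higher and 0.485% lower. Junb, of the AP-1 complex, was at 219.9, 251, 164, 137 and 116 CPM with azacitidine and 84.8, 52.2, 158 and 97.1 with NaCl.

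**Figure D4:**
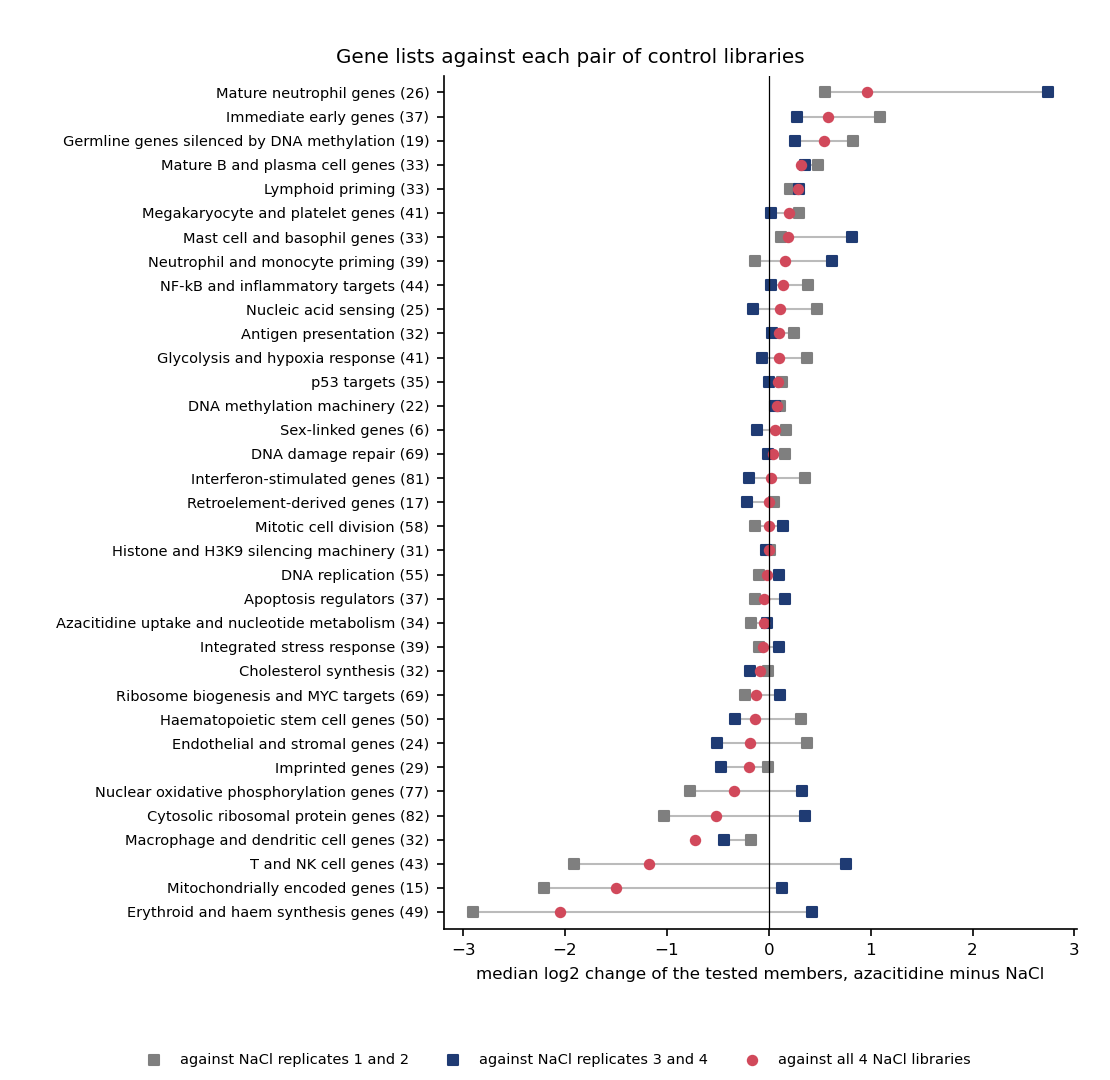
Median log2 change (azacitidine minus NaCl) of the tested members of 35 gene lists (number tested in brackets) against NaCl replicates 1 and 2 (grey squares), replicates 3 and 4 (blue squares) and all 4 controls (red circles). The erythroid list moves from -2.91 to 0.42 between the pairs, and lymphoid priming has 0.21 and 0.30.

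Mature neutrophil genes averaged -0.66, 3.49, -0.63, -0.11 and -0.61 log2 CPM in azacitidine replicates 1 to 5, high in replicate 2 alone, and 1.58, 0.39, -0.88 and 0.12 in NaCl replicates 1 to 4. Atf3, a stress-induced transcription factor gene, was likewise at 0.512, 7.65, 0.118, 0.235 and 0.173 CPM in the treated libraries. The mast cell tryptase Tpsb2 was at 11.7, 0, 2.14, 0 and 0.815 CPM with azacitidine and at 0 in all 4 controls. Mature B and plasma cell genes averaged 3.87, 3.89, 3.75, 5.14 and 3.91 log2 CPM with azacitidine, highest in replicate 4, and 4.92, 1.81, 3.29 and 3.90 with NaCl. Immunoglobulin and T cell receptor segments had a median change of 0.44 over 198 tested rows. Of these rows 2 (1.01%) were higher without overlap, beside 1.09% of all genes tested. By gene class, the share of genes higher without overlap was 1.85% for antisense RNAs (14 of 756), 1.11% for protein-coding genes (151 of 13661) and 0.733% for pseudogenes (12 of 1637), beside the same 1.09%.

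WT recipients, whose cells carried only mouse WT DNMT3A, had the same treatments. Their 3 azacitidine and 4 NaCl libraries are not among the 9 compared above. All 16 libraries were fitted together, however, so the WT libraries also entered the SE and p of the R882H changes. On the first principal component WT replicates 1 and 2 lay at 28.1 to 66.9 in both groups and replicates 3 and 4 at -52.4 to -11.4, and the part of this split in the WT values was not tested. All 12 named higher genes were positive in WT, and 11 of the 12 lower genes negative, beside 51.8% positive and 48.1% negative of all genes tested. Of the 199 genes higher without overlap in R882H 149 (74.9%) were positive in WT, with a median of 0.27 against 0.75 in R882H, and of the 89 lower genes 59 (66.3%) were negative, with -0.32 against -1.14. Clec11a had 1.35 (SE 0.28) in R882H and 1.57 (SE 0.30) in WT, F2rl2 1.27 (SE 0.29) and 1.21 (SE 0.31), and Gm11837 -2.31 (SE 0.32) and -1.63 (SE 0.37). Tested as the difference between the responses, edgeR called 0 genes (0%), with 1114 (6.07%) at an unadjusted p under 0.05, limma-voom called 0 and DESeq2 12. The simulated recovery for this contrast, under the same limits, was 8% at 2-fold and 61% at 4-fold. Of the 12 genes called by DESeq2, 10 were immunoglobulin variable segments, 1 was the T cell gene Cd8b1 and 1 was Klf9. DESeq2 gave the segments log2 differences of -30.05 to -20.8 or of 11.55 to 29.34, and Cd8b1 one of -25.5. Values of this size are not read here as effect sizes, and the edgeR adjusted p of all 12 was 0.763 or more.

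Klf9, a Krüppel-like transcription factor that glucocorticoids induce, was at 14.6, 14.4, 12.5, 19.1 and 10.8 CPM in R882H azacitidine replicates 1 to 5 and 24.9, 34.7, 20.9 and 20.2 in R882H NaCl replicates 1 to 4. In WT it was at 24.1, 24.1 and 15.6 CPM in azacitidine replicates 1 to 3 and 12.6, 12.8, 12.4 and 16.6 in NaCl replicates 1 to 4. Treated R882H libraries lay below all their controls, whereas 2 of the 3 treated WT libraries lay above all of theirs. The change was -0.82 (SE 0.21) in R882H and 0.65 (SE 0.24) in WT. The difference of -1.46 (SE 0.32) had an adjusted p of 0.763 in edgeR and 0.0173 in DESeq2. Against control replicates 3 and 4 alone the R882H change was -0.53. Among R882H controls and among treated WT libraries Klf9 was highest in replicates 1 and 2, which lay together on the first principal component, and the part of that split in the difference was not tested. Its promoter window, chr19:23140976-23141225 on the plus strand, holds 18 CpG.

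**Figure D5:**
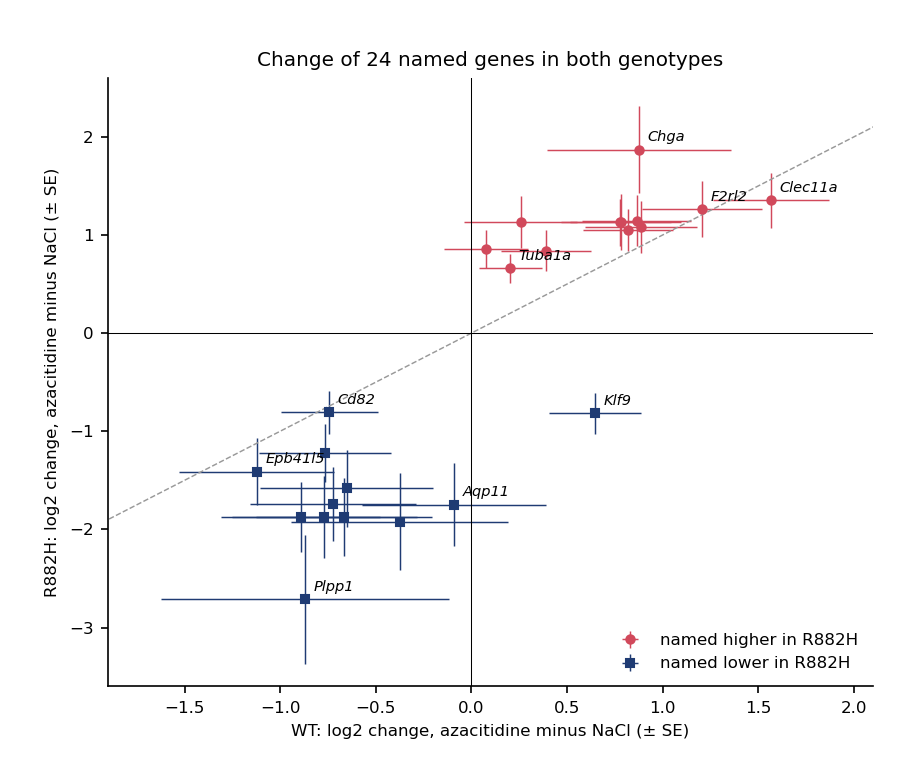
Log2 change (azacitidine minus NaCl, ± SE of the edgeR fit) of the 24 named genes in WT (horizontal axis) and in R882H (vertical axis); red circles were named higher and blue squares lower in R882H, and the dashed line marks equal changes. Clec11a lies near the line at 1.57 and 1.35, and Klf9 is the only named gene of opposite sign, at 0.65 and -0.82.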

How the data were processed

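Gene counts per library were deposited by the authors. Per the submitters' processing notes, HISAT2 2.0.5, featureCounts 1.6.2 and edgeR 3.26.6 were used with GRCm38/mm10, and per the labels' protocols cDNA was amplified with a SMARTer Ultra Low kit from RNA of sorted LSK cells. The strand setting is not given in the sources used here, and the deposited FPKM values were not used. Repeat rows (1201, with 3.46 to 6.81% of the counts of R882H libraries) were left out.

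Counts of all 16 libraries were fitted with edgeR 4.0.16 (filterByExpr, TMM, quasi-likelihood test, 1 coefficient per group, Benjamini-Hochberg adjusted p under 0.05) in R 4.3.3, which left 18341 genes and 12 residual degrees of freedom. DESeq2 1.42.0, limma-voom 3.58.1, sva 3.50.0, other filters and subsets of libraries were alternatives. The fit with library weights and the one without the libraries of replicate 1 were chosen after seeing the data. The scripts were tested on simulated data. The coefficient of variation between libraries of a group, from the dispersion that edgeR estimated in common for all genes, was 40.7% and may in part be technical. No pair of replicates agreed within sampling noise, the lowest chi-square per gene being 42.9 over 16 pairs.

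Named genes were every gene called, the 12 in each direction with the lowest p whose groups did not overlap and whose mean log2 CPM was 1 or more (prior count 2, predicted genes left out), genes called by 2 tools, the list members with the lowest p, and a set of markers and methylation genes, of which some are not reported here. Members and lists were chosen with earlier results of these data known. Promoter windows were matched by symbol. Only 78.3% of tested protein-coding genes had one, so a comparison of CpG content over all genes was void.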

Additional observations from a re-analysis of the deposited data

Results flagged for a closer look

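In 13 of 262 groups of 4 or 5 libraries checked, 1 library lay further from its neighbour than Dixon's 95% value allows, a rate that chance alone gives in about 1 group of 20. In log2 CPM, NaCl replicate 2 was low for Ifi47 (6.94), Psmb8 (7.94) and the homeobox gene Hoxa7 (4.31), and was high for the pseudokinase gene Trib2 (6.34), while NaCl replicate 1 was high for Cd48 (7.14). Azacitidine replicate 2 was low for Epb41l5 (0.47) and Airn (-4.40), and azacitidine replicate 3 was high for Ddx4 (4.43) and low for Eda2r (-3.08).

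As mean log2 CPM of a list, azacitidine replicate 1 was high for p53 targets (3.96) and for megakaryocyte and platelet genes (5.44), azacitidine replicate 2 was high for mature neutrophil genes (3.49), and azacitidine replicate 4 was high for mature B and plasma cell genes (5.14).

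Klf9 was lower with azacitidine in R882H and higher in WT, and the difference of the 2 responses was -1.47 in log2 (DESeq2 adjusted p = 0.0173, edgeR adjusted p = 0.763).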

How the results depend on the processing

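The number of calls depended on the tool and on the controls, and the cause was not tested. Genes called higher numbered 31 with DESeq2, 1 with a term for replicate numbers 1 and 2, 1245 without NaCl replicates 3 and 4 and 37 with library weights. Genes called lower numbered 66, 1276 and 88 with DESeq2, without NaCl replicates 3 and 4 and with weights. They numbered 0 without a count filter, in R882H libraries alone, with the replicate block, with 2 surrogate variables, without NaCl replicates 1 and 2, and without NaCl replicate 1 and azacitidine replicate 1. With single libraries left out they numbered 0 to 1. After group means were taken out, same-numbered treated and control libraries of R882H correlated at -0.119, 0.117, 0.0197 and 0.0635. These values do not show a pairing by number, and with so few libraries they cannot exclude one. Replicates 1 and 2 lay apart from 3 and 4 on the first principal component in 3 of the 4 groups. The replicate block gave 0 genes in either direction. Differences between responses numbered 12 with DESeq2 and 1714 without NaCl replicates 3 and 4.

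Of 96 genes recomputed under each alternative, which include those the text gives a change for but not every list member, 86 kept their sign throughout, and the other 10 had no call by edgeR. Without NaCl replicates 1 and 2 log2 changes were -0.168 for Dnmt1, -0.0935 for Dnmt3b, -0.0292 for Uhrf1, 0.124 for Ly6a, 1.84 for Cd3d, 1.15 for Mt1, 0.142 for Ly6c1 and 0.54 for Rps21. With weights they were -0.0075 for Dnmt3b, 0.0893 for Ly6a, 1.38 for Cd3d, 0.985 for Mt1 and 0.319 for Rps21. With 2 surrogate variables they were -0.0884 for Dnmt1, -0.0357 for Uhrf1 and 0.268 for Ly6a, and with limma-voom 0.0367 for Kit and 0.0592 for Ly6a. Kit was at 0.0058 with the term for replicate numbers and at 0.655 without NaCl replicates 3 and 4. Without NaCl replicate 1 and azacitidine replicate 1 they were -0.0595 for Dnmt1, -0.0477 for Uhrf1 and 0.382 for Ly6a. With single libraries left out, changes ran from -0.0521 to 0.186 for Dnmt3a, -0.0403 to 0.453 for Dnmt1, -0.0535 to 0.247 for Uhrf1, -0.247 to 0.216 for Kit and -0.485 to 0.42 for Ly6a.

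With single libraries left out, 16 of 35 list medians changed sign at least once, 14 of them medians within 0.2 of 0. The other 2 were T and NK cell genes, without NaCl replicate 1, and mature neutrophil genes, which ran from -1.49 without azacitidine replicate 2 to 2.04 without NaCl replicate 1. Whether deeper sequencing would add calls was not tested.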
